A study of Mus musculus with 10 samples.

Results

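Transcript levels of 9 genes that mark the neuroendocrine lineage were examined in prostate epithelium and in Myc-CaP cells with and without Arid1a deletion. The genes are Chga, Chgb, Syp, Eno2, Insm1, Scg2, Scg3, Scg5 and Sox2. They were taken by symbol from the 48897 rows of each table, and all 9 were present in both. RNA-seq was available for 10 mouse samples in 4 groups. The epithelium came from 3-month-old C57BL/6 mice and was sorted as EpCAM+, CD45- cells, with 3 control libraries (A, B and C) and 3 in which Arid1a was deleted as well (Arid1aPC-/-). Deletion was by a Cre driven by the Probasin promoter, which acts in prostate epithelium. Mice of both groups, the controls included, carried a further engineered deletion in that epithelium, so the controls were not wild type. Myc-CaP, a prostate cancer cell line of FVB mouse origin driven by Myc, gave 2 libraries with an empty vector and 2 in which Arid1a had been targeted with a guide RNA delivered by lentivirus. The study also sequenced tumours grown from Myc-CaP, and these samples are taken as the cell line because their labels give it as the source. The study describes a pair of Arid1a KO lines under the same numbers as the KO library titles, but no source used here ties each library to a line or says whether a line was 1 clone or a pool.

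Neuroendocrine cells are rare epithelial cells of the prostate that store peptides and amines in dense-core vesicles. Granins (Chga, Chgb and the secretogranins) help to build these vesicles and are the precursors of secreted peptides, Syp is a membrane protein of small synaptic-type vesicles, Eno2 is the neuronal form of the glycolytic enzyme enolase, and Insm1 and Sox2 are transcription factors. None of these genes belongs to neuroendocrine cells alone. Autonomic neurons, which innervate the prostate, use the same vesicle proteins. Prostate cancers that acquire a neuroendocrine phenotype are recognised by markers of this group.

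The targeted gene was examined first. In the epithelium, Arid1a averaged 25.4 ± 3.13 RPKM (SD, n = 3) in the controls against 30.2 ± 1.23 in the libraries labelled Arid1a KO (RPKM is a read count relative to gene length and library depth). Each library labelled Arid1a KO lay above each control library, and the log2 difference of 0.25 ± 0.09 (SE) had an adjusted p of 0.0540 in limma. The adjusted p fell under the threshold with quantile normalization (0.0423, limma) and after scaling to the same sum (0.0130, limma). It also did with the replicate letter as a block (0.0337, limma) and without control library A (0.0346, limma). In the other alternatives it did not. A value per gene does not separate the deleted exons from the rest of the transcript, so the label was not checked by it. In Myc-CaP, Arid1a fell from 60.7 ± 0.36 TPM (SD, n = 2; TPM is also relative to gene length, with a fixed sum per library) to 39.9 ± 0.58, a log2 change of -0.59 ± 0.06 (adjusted p = 0.0102, limma). For this reason the 3 epithelium libraries are called those labelled Arid1a KO, and every direction below follows that label.

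Differences were tested across all genes on log2(value + 1), in each table on its own, for genes with a mean of at least 0.5. A gene was called at a limma p under 0.05 after Benjamini-Hochberg adjustment over all genes tested. Fold changes are library means without the added 1, whereas log2 changes include it and understate the change of low genes. In the epithelium 57.1% of the 16275 genes tested were called, and 29.6% were called as lower under the Arid1a KO label, and the calls below are to be read against these shares. The smallest p that an exact permutation test of 3 libraries against 3 allows is 0.1.

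Of the 9 genes, 6 reached the level needed for the test in the epithelium, and 5 of these fell: Chga, Chgb, Syp, Scg2 and Eno2. Sox2 was not called. For 8 of 9 genes the mean was lower in the libraries labelled Arid1a KO. The groups did not overlap for 6 of 9, which were Chga, Chgb, Syp, Scg2, Scg3 and Scg5. Among the 6 genes tested, 4 had groups that did not overlap and were lower, where 34.4% of all tested genes were of that kind and 66.7% had groups that did not overlap in either direction. The median log2 change of the 6 was -0.82, compared with -0.03 over all genes tested.

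**Figure D1:**
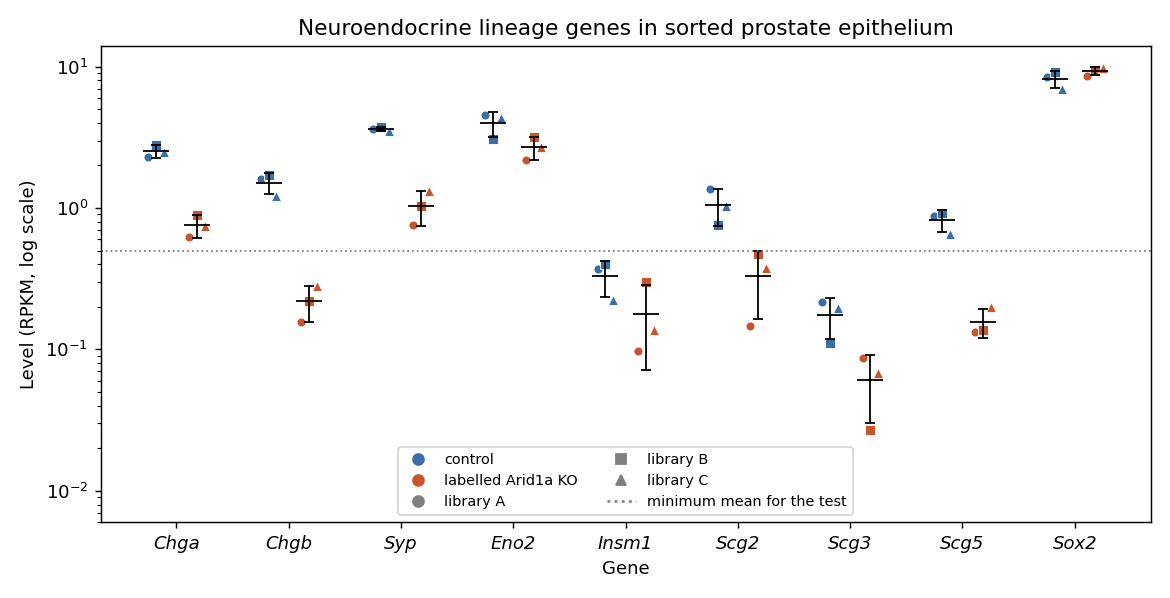
Level of each gene in RPKM (log axis) in the 3 control libraries (blue) and the 3 libraries labelled Arid1a KO (orange) of sorted prostate epithelium. Symbols mark libraries A, B and C, horizontal bars the group mean, error bars 1 SD, and the dotted line the minimum mean of 0.5. The groups are apart for 6 genes and overlap for Eno2, Insm1 and Sox2, and the mean levels span from 0.118 RPKM for Scg3 to 8.76 for Sox2.

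Among all tested genes, 34.4% had groups that did not overlap and were lower. The sequences upstream of the 4 called genes of the 9 that were of that kind are shown as a description of genes chosen by their result. They span from 150 bases before the RefSeq start site to 10 bases from it onward, on GRCm38.p6, 5′ to 3′ along the gene. Capitals mark matches on either strand to the cyclic AMP response element TGACGTCA, to TGACG, which lies within it, and to TTCAGCACC and GGACAG, the left and right parts of the element bound by the repressor REST. Chga lay at chr12:102554791-102554950 (plus strand), Chgb at chr2:132781492-132781651 (plus strand), Scg2 at chr1:79440017-79440176 (minus strand) and Syp at chrX:7638430-7638589 (plus strand).
Chga: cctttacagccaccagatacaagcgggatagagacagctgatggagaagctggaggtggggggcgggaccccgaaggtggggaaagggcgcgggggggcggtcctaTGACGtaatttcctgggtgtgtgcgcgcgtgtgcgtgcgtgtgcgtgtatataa
Chgb: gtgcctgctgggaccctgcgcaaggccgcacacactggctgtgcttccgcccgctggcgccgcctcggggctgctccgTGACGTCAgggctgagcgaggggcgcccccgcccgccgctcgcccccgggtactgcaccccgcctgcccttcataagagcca
Scg2: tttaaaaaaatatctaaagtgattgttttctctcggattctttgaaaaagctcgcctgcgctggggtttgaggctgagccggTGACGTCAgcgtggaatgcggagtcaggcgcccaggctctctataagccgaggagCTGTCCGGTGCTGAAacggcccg
Syp: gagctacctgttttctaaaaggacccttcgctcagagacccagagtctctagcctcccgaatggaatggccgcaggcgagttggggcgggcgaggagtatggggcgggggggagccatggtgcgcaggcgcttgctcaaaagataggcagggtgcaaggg
TGACGTCA was found in Chgb, at bases -72 to -65 with the first transcribed base counted as 0, and in Scg2 at bases -68 to -61. RefSeq windows of 300 bases were at hand for 8 of the 9 genes, all but Insm1, and 2 of the 8 held TGACGTCA, compared with 1.79% of 32851 promoter windows. The shorter TGACG was in 5 of the 8 (Chga, Chgb, Scg2, Scg3 and Scg5) and in 20.8% of all windows. In Scg2 the 2 REST parts stood side by side on the opposite strand (bases -13 to 1), with no base between them. Only these parts were searched for, and not the whole element with its spacing. TTCAGCACC was in 0.371% and GGACAG in 22.2% of all windows, and each was in 1 of the 8. The Syp window held none of these letters. These matches describe the sequence, and binding was not measured.

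Among the granins, Chga (chromogranin A, chromosome 12, 102554969 to 102565028 on GRCm38) is the standard tissue and serum marker of neuroendocrine cells. Its level was 2.28, 2.81 and 2.50 RPKM in controls A, B and C, against 0.619, 0.896 and 0.745 RPKM in libraries A, B and C labelled Arid1a KO. All 3 of the latter lay under the lowest control, and the mean fell 3.36-fold, from 2.53 ± 0.27 to 0.754 ± 0.139 (SD, n = 3). The log2 change was -1.01 ± 0.10 (adjusted p = 1.75e-04, limma), and 4.6% of tested genes had a lower one.

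Chgb (chromogranin B, chromosome 2, 132781278 to 132795079) is packed into the same granules. It was measured at 1.61, 1.70 and 1.22 RPKM in the controls and at 0.156, 0.221 and 0.279 RPKM in the libraries labelled Arid1a KO. With a mean at 14.5% of control (6.90-fold lower), it had the deepest fall of the 9 genes relative to its control level. The groups were far apart (log2 change -1.04 ± 0.11, adjusted p = 2.06e-04, limma). The reads behind these values could be recovered from the steps between values, and numbered 104 to 169 per control library and 13 to 22 per library labelled Arid1a KO. The lowest of these, 13 reads, has an exact Poisson 95% interval of 6.92 to 22.2 reads, which covers counting error only.

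Scg2 (secretogranin II, chromosome 1, 79434669 to 79440120), the precursor of secretoneurin, was at 1.37, 0.753 and 1.03 RPKM in the controls. The libraries labelled Arid1a KO had 0.145, 0.473 and 0.377 RPKM, so the groups did not overlap, although each varied more than for Chga. The fall was 3.17-fold on the means (log2 change -0.62 ± 0.15, adjusted p = 0.00846, limma).

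Scg5 (chromosome 2, 113776362 to 113829121), which encodes the 7B2 chaperone of the prohormone convertase PCSK2, had a mean of 0.487 RPKM over the 6 libraries and so lay just under the minimum for the test. Control values were 0.881, 0.920 and 0.654 RPKM and those labelled Arid1a KO were 0.134, 0.137 and 0.198 RPKM, on 5 to 7 reads each. Its mean was at 19.1% of control, and the groups did not overlap. When the minimum mean was lowered to 0.1, a setting chosen after the values were seen, the log2 change was -0.65 ± 0.08 (adjusted p = 8.30e-04, limma).

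Scg3 (secretogranin III, chromosome 9, 75643189 to 75684056) was the lowest of the 9 in RPKM, at 0.217, 0.111 and 0.195 RPKM in the controls and 0.0868, 0.0270 and 0.0678 RPKM in the libraries labelled Arid1a KO. This rank depends on gene length, since its values implied 8706 bases at the estimated depth, compared with 2738 exon bases in GENCODE M21. Its reads numbered 144 in the controls and 47 under the Arid1a KO label, against 98 and 17 for Scg5 and 98 and 48 for Insm1. The groups did not overlap, and the lowest value rested on 7 reads (95% interval 2.81 to 14.4). It was not called when the minimum was lowered to 0.1 (adjusted p = 0.106, limma) or removed (adjusted p = 0.0517, limma). Summed over the 5 granins, the level was 6.36, 6.30 and 5.61 RPKM in the controls and 1.14, 1.75 and 1.67 RPKM in the libraries labelled Arid1a KO, 4.0-fold lower on the means.

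The vesicle protein gene Syp (synaptophysin, chromosome X, 7638471 to 7653256) had the tightest control values of the 9 genes relative to the mean, at 3.61, 3.73 and 3.53 RPKM. Libraries labelled Arid1a KO had 0.754, 1.03 and 1.33 RPKM, all under the lowest control. The mean fell 3.49-fold, from 3.62 ± 0.10 to 1.04 ± 0.29 (SD, n = 3). On the log2(value + 1) scale, the change of -1.19 ± 0.11 (adjusted p = 1.46e-04, limma) was the largest of the 6 tested. With 0.1 added in place of 1, the log2 change of Chgb (-2.34) was larger than that of Syp (-1.74).

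Eno2 (neuron-specific enolase, chromosome 6, 124760053 to 124769673) was at 4.56, 3.06 and 4.33 RPKM in the controls and 2.18, 3.19 and 2.69 RPKM in the libraries labelled Arid1a KO. Control library B lay under library B labelled Arid1a KO, so the groups overlapped. The log2 change was -0.43 ± 0.15 (adjusted p = 0.0409, limma), and the call did not hold without control library A (adjusted p = 0.123) or C (0.116), or without library A (0.125) or C (0.0807) labelled Arid1a KO, nor after scaling to the same sum (0.155, limma throughout). Of the other enolases, the ubiquitous Eno1 rose (log2 change 0.29 ± 0.08, adjusted p = 0.0208, limma) from 349.5 ± 23.8 to 426.0 ± 20.1 RPKM, and the muscle form Eno3 fell by 0.31 on the log2 scale (adjusted p = 0.0154, limma). The Eno1 call was lost when 1 of 4 libraries was left out (adjusted p from 0.0575 to 0.0808), and the Eno3 call after scaling to the same sum (adjusted p = 0.128).

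Of the transcription factors, Insm1 (chromosome 2, 146221921 to 146225020), a regulator of neuroendocrine differentiation, was near zero. It had 0.368, 0.401 and 0.223 RPKM in the controls and 0.0978, 0.300 and 0.138 RPKM in the libraries labelled Arid1a KO, on 9 to 44 reads. The groups overlapped, and with the minimum lowered to 0.1 it was not called (log2 change -0.18 ± 0.09, adjusted p = 0.157, limma).

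Sox2 (chromosome 3, 34650405 to 34652461), a stem cell factor that is also active in basal cells of the prostate, was the most abundant of the 9. Its level was 8.39, 9.22 and 6.97 RPKM in the controls and 8.63, 9.48 and 9.85 RPKM in the libraries labelled Arid1a KO, and the groups overlapped. The log2 difference was 0.17 ± 0.10 (adjusted p = 0.186, limma). After scaling to the same sum it was 0.33 and was called (adjusted p = 0.0193, limma), with the median of all genes at 0.11 under that scaling. The 6 basal cell markers, among which 2 rose, 0 fell and 4 were not called, summed to 1399 to 1981 RPKM in the controls and 2413 to 2691 in the libraries labelled Arid1a KO. They were not uniform. Krt5 rose from 301.6 to 762.2 RPKM, whereas Krt15 went from 1107 to 849.5 RPKM with groups that did not overlap (adjusted p = 0.0638, limma). The part of these markers in the Sox2 value was not tested.

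**Figure D2:**
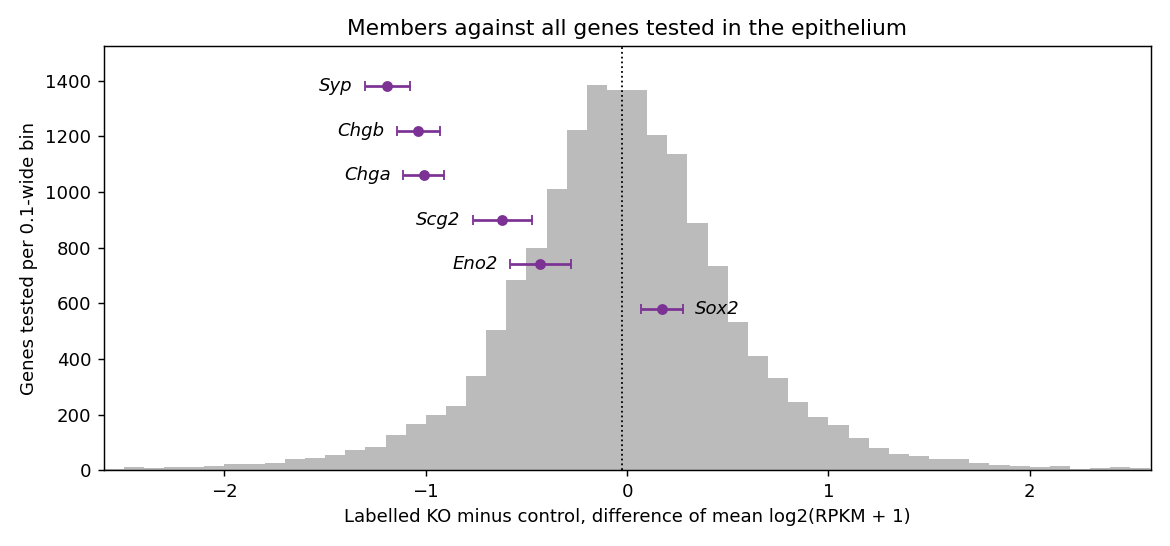
The log2(RPKM + 1) change of the 6 genes tested (purple points, bars 1 SE) over the histogram of the change of all 16275 genes tested in the epithelium (grey, number of genes per bin), with the median of all genes as a dotted line. Syp, Chgb, Chga and Scg2 lie to the left of most genes, Eno2 within the left flank at -0.43 and Sox2 right of the centre at 0.17.

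Library A labelled Arid1a KO had the lowest of the 3 values for 8 of 9 genes, and control library B had the highest control value for 6 of 9. The reads of the 9 genes together numbered 1025 in that library A, 1236 in B and 1182 in C, compared with 1696 to 2088 in the controls. Over the 6 libraries, the genes most like Chga in log2 level were Uchl1 (Pearson r = 0.99969), Rnf187 (0.99968) and Mtch1 (0.99878), and those most like Syp were Cbs (0.99924), Gm7714 (0.99894) and Lrfn4 (0.99857). These are descriptions over 6 libraries that share 1 contrast, and 1670 genes had r over 0.95 with Chga and 1931 with Syp.

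Other genes of the pathway fell more often than they rose in 3 lists, those of prohormone processing, vesicle machinery and other markers. They did not in those of the transcription regulators and the enolases. Over all 16275 genes tested, 4823 were called lower and 4471 higher. Of 15 further granin and prohormone processing genes, 12 could be tested, 6 fell and 3 rose (median log2 change -0.54). Pcsk1n, which encodes the proSAAS inhibitor of a prohormone convertase, fell from 7.25 ± 1.35 to 0.903 ± 0.214 RPKM (log2 change -2.11, adjusted p = 3.41e-05, limma). The neuropeptide precursor genes Vip (-1.63), Npy (-1.40) and Tac1 (-1.23) fell, whereas Grp (0.75), the convertase gene Pcsk1 (0.56) and Calca (0.36) rose. The Grp call was lost without control library A (adjusted p = 0.0813) or C (0.105) or library B labelled Arid1a KO (0.0522), with log2 changes of 0.63 to 0.85. Without library C labelled Arid1a KO the log2 change was 0.45 (adjusted p = 0.0469, limma throughout).

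Among 27 further genes of vesicle machinery, 20 were tested, 13 fell and 3 rose (median -0.49). The calcium sensor gene Syt7 fell from 6.65 ± 0.40 to 1.43 ± 0.55 RPKM (log2 change -1.68, adjusted p = 1.18e-04, limma). Rab3a (-1.27) and Cplx2 (-1.14), which act in vesicle docking and fusion, also fell. Syngr1 (0.65), the syntaxin gene Stx1a (0.53) and Ptprn (0.41), a receptor-like protein of dense-core vesicles, rose. The Ptprn call was lost without control library C (adjusted p = 0.0646) or without library A (0.0561) or B (0.0689) labelled Arid1a KO (limma).

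Of 14 further surface, enzyme and cytoskeletal markers, 10 were tested, 9 fell and 0 rose (median -0.64). Uchl1, a ubiquitin hydrolase abundant in neurons, fell from 23.5 ± 3.4 to 4.91 ± 0.82 RPKM (log2 change -2.05, adjusted p = 3.23e-05, limma). The growth cone gene Gap43 (-1.29), the neuronal tubulin gene Tubb3 (-1.12) and Stmn2 (-0.94) fell as well.

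Transcription regulators of the neuroendocrine and neural lineages did not share a direction. Of 18 besides Insm1 and Sox2, 7 were tested, 3 fell and 3 rose, with a median log2 change of 0.01. Isl1 (-1.21), Hes6 (-0.80) and Sox4 (-0.73) fell, whereas Sox11 (0.97) and the tuft cell factor Pou2f3 (0.86) rose. Rest, which encodes a repressor of neuronal genes in other cell types, rose from 4.58 ± 0.49 to 7.22 ± 0.13 RPKM (log2 change 0.56 ± 0.08, adjusted p = 0.00102, limma).

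Markers of other cells differed between the same libraries. The list for nerve and Schwann cells held 14 genes, all detected, of which 12 were tested, 7 fell and 0 rose (median -0.51), and it summed to 48.3 to 55.5 RPKM in the controls and 29.9 to 31.9 RPKM in the libraries labelled Arid1a KO. Prph (peripherin, an intermediate filament of peripheral neurons) went from 12 ± 0.44 to 2.77 ± 0.87 RPKM, 23.1% of control (log2 change -1.81, adjusted p = 9.15e-05, limma).

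Th and Dbh encode enzymes of catecholamine synthesis in sympathetic neurons. Th fell to 13.2% of control and Dbh to 30.4%, with log2 changes of -1.02 and -1.09, and the neurofilament gene Nefm to 25.5% (-0.94). The most abundant gene of the list, the myelin gene Mbp, did not pass the test, with 16.6 ± 1.0 RPKM in the controls and 14.8 ± 1.3 in the libraries labelled Arid1a KO (log2 difference -0.16, adjusted p = 0.132, limma). By a division of the list made after its values were seen, the means of the neuronal genes Prph, Nefl, Nefm, Th and Dbh were at 13.2% to 38.7% of control, and those of the 6 Schwann cell genes at 52.2% to 89.2%. The division left out the adhesion genes Ncam1 (64.4%) and L1cam (96.7%), which lay above the range of the neuronal genes. Chga, Chgb, Syp and Scg2 were at 14.5% to 31.5%. The rest of the 9 genes spread more widely, with Scg5 at 19.1%, Scg3 at 34.7%, Insm1 at 54.0%, Eno2 at 67.4% and Sox2 at 113.8%. The cells had been sorted as EpCAM+, a gate meant to leave out neurons and Schwann cells. All 14 genes of the list were detected in every library, as were all 9 neuroendocrine lineage genes. The part of nerve tissue in the levels of the 9 genes was not tested, and these values do not tell which cells the transcripts came from.

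**Figure D3:**
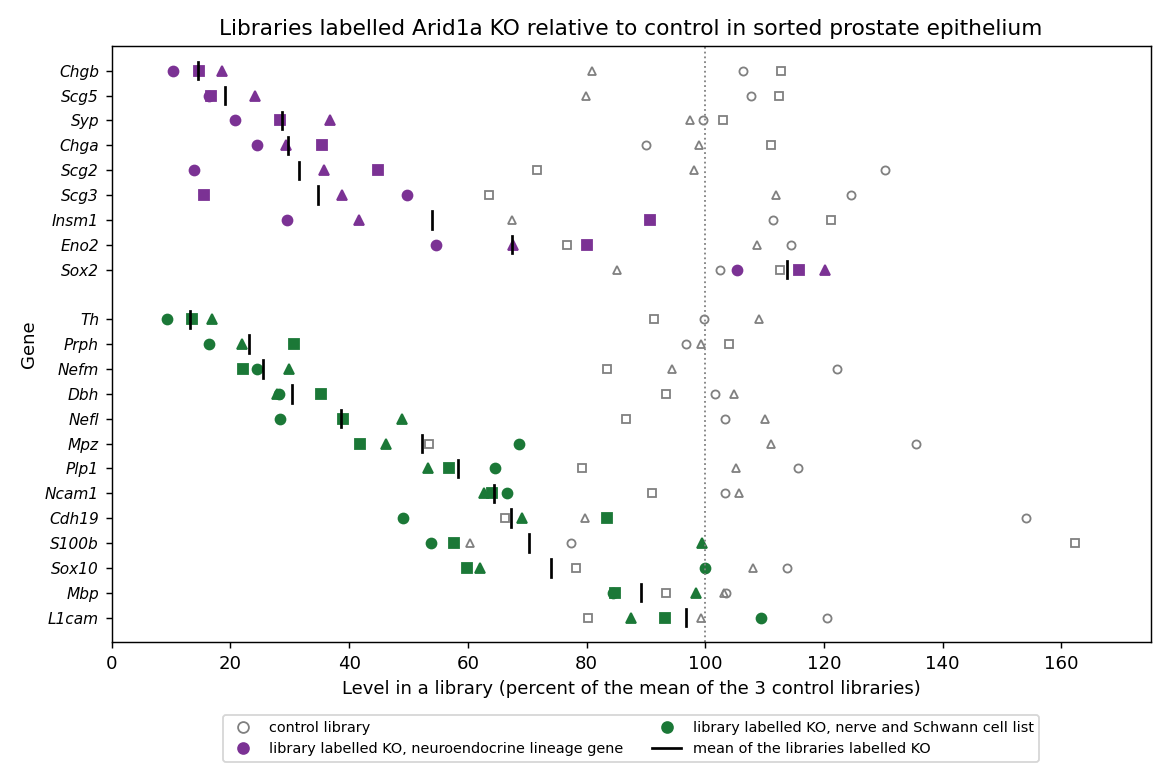
Level of each gene in each epithelium library as a percent of the mean of the 3 control libraries, for the 9 neuroendocrine lineage genes (purple) and genes of the nerve and Schwann cell list (green, 13 of 14 shown). Open grey symbols are control libraries, filled symbols libraries labelled Arid1a KO, circles, squares and triangles libraries A, B and C, and black bars the mean of the latter group. Th, Prph and Nefm lie in the same range as Chgb, Scg5, Syp and Chga, and Mbp, L1cam and Sox2 lie near 100%.

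The other marker lists moved as well. All 8 seminal vesicle genes fell, and their sum was 19460 to 21960 RPKM in the controls and 647.3 to 1631 RPKM in the libraries labelled Arid1a KO. Of 9 luminal markers 6 fell and 0 rose (4060 to 5490 RPKM against 3112 to 3581). Of 12 leukocyte markers, 8 rose and 1 fell (4322 to 4883 against 5813 to 6029 RPKM), although the cells had been sorted as CD45-. Of 10 fibroblast and smooth muscle markers 5 fell and 2 rose, with overlapping sums (1766 to 2529 against 1481 to 2076 RPKM), and of 5 endothelial markers 1 rose (34.4 to 45.6 against 45.3 to 57.9 RPKM, overlapping). The part of these lists in the values of the 9 genes was not tested. In bulk RNA, fewer cells of a type and less RNA per cell cannot be told apart.

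In Myc-CaP cells the 9 genes were at or near zero in all 4 libraries. Their highest mean was 0.193 TPM, 0 of 9 reached the minimum mean of 0.5, and 21 of the 36 values were 0. The reads of all 9 genes together numbered 19 and 14 in the empty vector libraries 1 and 2 and 5 and 8 in Arid1a KO libraries 1 and 2. Across all genes tested, 6.43% of 13974 were called.

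Insm1 and Scg2 were at 0 in all 4 libraries. A count of 0 allows up to 3 reads as a one-sided limit (the two-sided 95% interval reaches 3.69), worth 0.113 to 0.13 TPM for Insm1 and 0.138 to 0.159 TPM for Scg2. Chga was at 0.179 TPM in empty vector library 1, on 3 reads, and at 0 in the other 3 libraries. Chgb had 2 reads in empty vector library 1 and 1 read in Arid1a KO library 1 and was at 0 elsewhere. Scg3 had a single read, in empty vector library 2. None of these genes was above the floor of 3 reads in any library, so a difference was not detectable at this depth.

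Syp was detected in every library, with 0.367 and 0.157 TPM in the empty vector libraries (8 and 3 reads) and 0.195 and 0.0530 TPM with Arid1a KO (4 and 1 reads). Eno2 was at 0.0677 and 0.346 TPM with the empty vector (2 and 9 reads) and at 0 and 0.117 TPM with Arid1a KO (0 and 3 reads). Scg5 had 4 reads in empty vector library 1 (0.372 TPM) and 1 read in Arid1a KO library 2. Sox2 had 1 read in empty vector library 2 and 3 reads in Arid1a KO library 2.

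The groups overlapped for each of the 9 genes. With no minimum level, the 7 genes detected in any library could be tested and 0 were called by limma, and at an unadjusted p under 0.05 the number was also 0. For 2 libraries against 2 the smallest exact permutation p is 0.333.

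**Figure D4:**
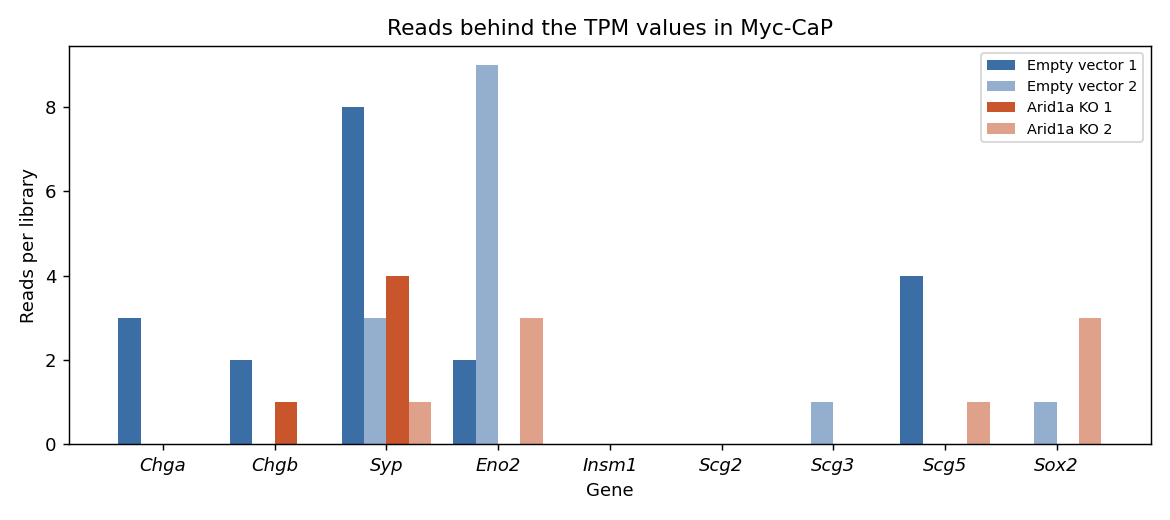
Reads behind the TPM value of each gene in the 2 empty vector libraries (blue) and the 2 Arid1a KO libraries (orange) of Myc-CaP, as recovered from the steps between values. The highest bar is Eno2 in empty vector library 2 with 9 reads, and Insm1 and Scg2 have 0 in all 4 libraries.

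Several other genes of the pathway were abundant in Myc-CaP. Uchl1 was at 838.8 ± 20.5 TPM (SD, n = 2) in empty vector cells against 798.1 ± 19.1 TPM with Arid1a KO and was not called (log2 difference -0.07, adjusted p = 0.514, limma). Cpe, which encodes the prohormone-trimming enzyme carboxypeptidase E, rose from 264.7 ± 1.5 to 412.1 ± 6.6 TPM (log2 change 0.64 ± 0.05, adjusted p = 0.00601, limma). It was the only called gene among 5 tested of the granin and prohormone list. Of the vesicle machinery list 0 of 13 tested genes were called by limma, of the regulators 0 of 4, and of the other markers 0 of 4. With the replicate number as a block, 1 of 13, 2 of 4 and 1 of 4 were called. Rest was at 17.2 ± 0.2 and 20.4 ± 1.4 TPM (log2 difference 0.23, adjusted p = 0.203, limma), and Eno3 fell from 323.7 ± 1.87 to 212.5 ± 1.4 TPM (log2 change -0.61, adjusted p = 0.00636, limma). The Cpe, Eno3 and Arid1a calls were each lost when any 1 of the 4 libraries was left out (adjusted p from 0.0784 to 0.111).

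The nerve list in Myc-CaP had 5 of 14 genes at 0 in all 4 libraries, Th and Nefl among them, and Prph was at 0 in 3 of 4. The list summed to 15.0 to 17.4 TPM with the empty vector and 20.4 to 21.2 TPM with Arid1a KO, most of it from the adhesion gene Ncam1 (12.3 and 14.2 against 16.4 and 17.1 TPM), which was not called (adjusted p = 0.160, limma). The 9 luminal markers together summed to 42.9 to 53.4 TPM with the empty vector and 99.0 to 114.0 TPM with Arid1a KO. They were unequal, since Pbsn was at 0 in all 4 libraries and Krt8 was at 1.07 and 0.790 TPM with the empty vector. Krt8 was at 40.3 and 38.8 TPM with Arid1a KO (log2 change 4.40, adjusted p = 0.00135, limma). The epithelium and the cell line were processed in different units, and the difference between their changes was not tested.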

How the data were processed

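The 10 RNA-seq libraries fell into 4 groups by the genotype given in their labels. Per the study's methods, the authors used TopHat2 to align read pairs to GRCm38 and HTSeq to count them, whereas the submitters' processing notes name HISAT2, HTSeq and DESeq2 on mm10. Values were deposited by the authors as RPKM for the epithelium and as TPM for Myc-CaP. In each of the 10 samples, 0 values differed between the sample's own file and the series table. Both units remove gene length, and their lengths are not stated. The methods give 3 mice per genotype for the epithelium. They describe experiments as independently repeated, without saying how the Myc-CaP libraries of a group were derived, so those p-values measure the spread between these samples, which may be technical.

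The tables were fitted separately with limma 3.58.1 in R 4.3.3 (lmFit, then eBayes with a trend) on log2(value + 1), for genes with a mean of at least 0.5. Tests were two-sided, with p-values adjusted (Benjamini-Hochberg) over every gene tested. The code was tested on simulated data. Because a gene takes whole multiples of the value of 1 read, reads were recovered from the steps between values to within 0.001 reads, for 97.5% of 24243 epithelium genes and 99.8% of 12520 Myc-CaP genes checked. They serve as depth only, and no count model was fitted. With GENCODE M21 gene lengths, which gave this depth within 1% for 12.0% of genes, the epithelium libraries had an estimated depth of 28.8 to 36.3 in units of 1e+06 mapped reads. TPM keeps no absolute depth. Intervals are exact Poisson at 95%, a count of 0 allows up to 3 reads (one-sided), and both cover counting error only. Promoter windows came from RefSeq (GRCm38.p6) and gene positions from GENCODE M21.

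The 9 genes and 12 lists were chosen with earlier results of these data known. The text names all 9 genes, in each pathway list up to 4 called genes per direction with groups that do not overlap, the 2 most abundant of each marker list where a result turns on them, Arid1a, Rest, Eno1, Eno3, and the 3 genes most like Chga and Syp. Nefl, L1cam and Pbsn were named after their values were seen. Some single genes are not reported here. Alternatives were another pseudocount, other minimum means, quantile and same-sum scaling, no variance trend, a replicate block, and leaving out each library.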

Additional observations from a re-analysis of the deposited data

Results flagged for a closer look

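Groups that did not overlap and moved in opposite directions in the epithelium and in Myc-CaP flagged 7 of the genes named, and the difference between the tables was not tested. Arid1a differed by 0.25 on the log2 scale in the epithelium and by -0.59 in Myc-CaP. Cpe differed by -0.60 and 0.64 and Pam, which amidates peptide hormones, by -0.64 and 0.35. The vesicle genes Syt7 (-1.68 and 0.20) and Rab3a (-1.27 and 0.26) were lower in the epithelium and higher in Myc-CaP, and Stx1a (0.53 and -0.13) was the reverse. Ncam1 differed by -0.47 and 0.32. In Myc-CaP, limma called Arid1a (adjusted p = 0.0102) and Cpe (0.00601) and did not call Pam (0.0810), Ncam1 (0.160), Syt7 (0.349), Rab3a (0.294) or Stx1a (0.50). The rule needed a gene to be tested in both the epithelium and Myc-CaP. Of the 9 neuroendocrine lineage genes 0 were tested in Myc-CaP, so none could be flagged.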

How the results depend on the processing

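Chga, Chgb, Syp and Scg2 kept their direction and their call under every alternative in which they were tested. With a minimum mean of 1, Chgb and Scg2 were not tested and 3 of 4 tested genes of the lineage were called. Leaving out 1 library gave 4 to 6 called, all lower. Eno2 was not called with no minimum (adjusted p = 0.0994) or a minimum of 0.1 (0.0539, added after the data were seen) or with a replicate block (0.0745, limma), besides the settings named beside its value. Under same-sum scaling the median log2 change of all epithelium genes went from -0.03 to 0.11 and the share of calls that were higher from 48.1% to 64.9%, and the log2 change of Mbp became 0.011. Same-numbered epithelium libraries did not deviate together (r = 0.041, 0.009 and -0.057), and the 2 Myc-CaP pairs had r = 0.195, so the numbers were not taken as pairs. With a replicate block, 4 of the lineage genes were called in the epithelium, and 2771 genes instead of 899 in Myc-CaP, among them Pam (adjusted p = 0.0152, limma). The Myc-CaP count was 358 with no minimum, 451 with no variance trend, and 47 to 76 with 1 library left out, where the lone library is assumed to vary like the other group. The cause of these shifts was not tested beyond the fewer libraries in the last. Depth limits the Myc-CaP values, at 0 to 9 reads per gene and library, and Scg5, Scg3 and Insm1 in the epithelium.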
